A study of Homo sapiens with 8 samples.

Results

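The departure of a drug combination from the additive effects of its components was measured gene by gene in C4-2B cells, a castration-resistant human prostate cancer line derived from LNCaP. The 4 groups of cells were profiled by RNA sequencing after 7 days, with 2 libraries in each: ENZ plus EPZ6438 (Combination), ENZ at 10 uM, EPZ6438 at 1 uM (EPZ), and DMSO, the vehicle. The labels give no separate doses for the combination, and no genetic change in any group. ENZ commonly stands for the antiandrogen enzalutamide, and EPZ6438 is also known as tazemetostat, which inhibits EZH2. The contrast takes all 8 of the 8 libraries: Combination minus ENZ minus EPZ plus DMSO, on the log2(FPKM + 1) scale, where FPKM are fragments counted on a gene, divided by its length and by library size. A value of 0 means that the combination stood where the changes seen with each agent alone, added on the log2 scale, would put it. A negative value means a lower level than that additive expectation, and a positive value a higher one. Of 26443 genes with values, 11874 had a mean of at least 1 FPKM and were tested. Just inside that limit were SESTD1 at a mean of 1.0003 FPKM (departure -0.02) and ZNF805 at 1.0013 FPKM (-0.15), and just outside it DCBLD2 at 0.99949 and GPHA2 at 0.99737 FPKM. The 14569 genes below it, of which 5417 were listed at 0 in every library, were not tested.

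Androgens turn on secretory and metabolic genes of the prostate luminal cell, and enzalutamide blocks androgen signalling. EZH2 is the catalytic subunit of PRC2, a complex that places a repressive methyl mark on histones at developmental and other silenced genes. Many genes of mitosis share promoter elements called CHR and CCAAT boxes, and many genes of DNA replication share binding sites for E2F factors.

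Most of the 12 lowest departures were of cell-cycle genes, so the 250 bases upstream of the annotated start are given for 3 cell-cycle genes that departed downward, read 5′ to 3′ from RefSeq on GRCh38.p14. They are MKI67, the gene of the proliferation antigen Ki-67 (chr10:128126424-128126673, minus strand), CDC20, which switches on the anaphase-promoting complex (chr1:43358731-43358980, plus strand), and RRM2, the small subunit of ribonucleotide reductase (chr2:10122489-10122738, plus strand). Capitals mark every match, on either strand, to TTTGAA (the CHR), to CCAAT, to the E2F forms TTCCCGC and TTGGCGC, to TATAAA, to the E box CACGTG or to AGAACA, a core of the androgen response element.
MKI67: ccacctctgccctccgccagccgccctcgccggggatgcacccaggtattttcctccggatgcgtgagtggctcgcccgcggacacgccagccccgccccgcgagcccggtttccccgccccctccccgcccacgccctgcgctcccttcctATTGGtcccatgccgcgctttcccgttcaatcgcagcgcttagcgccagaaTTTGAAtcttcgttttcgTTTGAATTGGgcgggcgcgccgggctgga
CDC20: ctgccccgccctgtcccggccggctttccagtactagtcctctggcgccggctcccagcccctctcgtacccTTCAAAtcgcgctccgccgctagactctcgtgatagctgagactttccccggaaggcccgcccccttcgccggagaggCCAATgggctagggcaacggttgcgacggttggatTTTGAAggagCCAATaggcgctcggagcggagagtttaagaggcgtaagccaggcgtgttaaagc
RRM2: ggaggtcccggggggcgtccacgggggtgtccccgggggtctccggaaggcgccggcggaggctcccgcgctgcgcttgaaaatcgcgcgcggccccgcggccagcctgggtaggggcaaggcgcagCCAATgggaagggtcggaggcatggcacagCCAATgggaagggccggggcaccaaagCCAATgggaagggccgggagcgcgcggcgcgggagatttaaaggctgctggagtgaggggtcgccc
MKI67 and CDC20 each hold CHR and CCAAT letters, and in MKI67 the last CHR and CCAAT matches share a base. RRM2 holds 3 CCAAT matches and no CHR match in this window. The table had promoters for 43 of the 50 tested G2/M and mitosis genes, and 51.2% of these held TTTGAA, against 7.57% of the 8787 tested genes with a promoter and 13.6% of all 27305 promoters in the table. CCAAT stood in 69.8% of the G2/M promoters, against 35.9% of tested genes and 33% of all promoters. Among 41 promoters of G1/S and DNA replication genes, TTCCCGC stood in 36.6% and TTTGAA in 2.44%. TTCCCGC stood in 9.42% of tested genes and 5.59% of all promoters. The shares of all departing genes, called under both scalings as described below, lay nearer to those of tested genes. Among 2129 promoters of genes called lower, TTTGAA stood in 8.78%, CCAAT in 40.2% and TTCCCGC in 11.8%. Among 863 promoters of genes called higher, they stood in 6.84%, 33.3% and 5.68%. A match describes the letters of the window and is not evidence that a factor binds there.

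Estimated depth was about 19300000 and 16400000 fragments in the Combination libraries, 19300000 and 21800000 for ENZ, 24400000 and 22300000 for EPZ, and 15400000 and 20300000 for DMSO. At these depths 0.041 to 0.0648 FPKM corresponds to 1 fragment where a gene is 1 kilobase long. FPKM summed to 218646 and 224223 over all genes in Combination, to 276531 and 283211 with ENZ, to 288954 and 296532 with EPZ and to 314611 and 318599 with DMSO, so Combination was lowest. Whether the replicates were separate cultures is not stated, so p-values reflect variation among the deposited libraries, possibly technical. The luminal genes HOXB13, FOXA1, KRT8, KRT18 and KLK3 averaged 71.5 FPKM or more in every group. The basal genes KRT5, KRT14 and TP63 and the leukocyte, endothelial and stromal genes PTPRC, PECAM1 and LUM averaged at most 0.126 FPKM. COL1A1, a fibroblast collagen gene also made by other cells, averaged 10.5 FPKM in Combination, 3.91 in ENZ, 2.84 in EPZ and 2.33 in DMSO. Of the 23 markers of non-epithelial cells, 3 passed the filter, COL1A1, CD68 and MBP, and 4 were listed at 0 in every library. The 23 summed to 30.7 FPKM in Combination, 20.9 in ENZ, 21.1 in EPZ and 21.5 in DMSO. The 20 basal genes summed to 45 FPKM in Combination, 42.7 in ENZ, 52.1 in EPZ and 41 in DMSO, with EGFR and ITGA6 the most abundant in every group. The part of such cells in the results was not tested.

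Departure from additivity was common, and downward departures outnumbered upward ones. As deposited, 4703 of 11874 genes (39.6%) departed at a limma adjusted p under 0.05 (Benjamini-Hochberg), 1186 of them higher (9.99%) and 3517 lower (29.6%). After median-of-ratios scaling, which sets each library to the typical gene, 4448 genes departed (37.5%), 1644 higher (13.8%) and 2804 lower (23.6%). The 3990 genes (33.6%) that departed in the same direction under both scalings are called here: 1186 higher (9.99%) and 2804 lower (23.6%). At least 2-fold, 126 were higher (1.06%) and 398 lower (3.35%). The called genes were all of the upward calls as deposited and all of the downward calls after scaling. Agreement between the 2 scalings is thus not separate support. Upward calls made up 25.2% of calls as deposited, 37% with median-of-ratios scaling and 49.3% with quantile normalization, which moved the median departure of all genes to 0.01 from -0.12 as deposited. Without EPZ replicate 2, upward calls numbered 777 as deposited and 1004 with median-of-ratios scaling. The balance of directions thus differed between scalings.

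Genes called higher mostly stood outside the range of every other group. Both Combination libraries lay above all 6 others for 957 of the 1186 (80.7%), against 24% of all tested genes. Among genes called lower, both lay below all 6 others for 2245 of 2804 (80.1%), against 40.6% of all tested genes. The departure can be read as the change in the effect of 1 agent when the other is present. For genes called higher, the median effect of EPZ was 0.67 on top of ENZ (Combination minus ENZ) and 0.10 alone (EPZ minus DMSO), and that of ENZ was 0.78 on top of EPZ and 0.25 alone. For genes called lower, the median effect of EPZ was -0.74 on top of ENZ and -0.16 alone, and that of ENZ was -0.80 on top of EPZ and -0.19 alone. These shares and medians describe genes chosen by their departure, which favours Combination values outside the other groups, and carry no test.

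Across all tested genes, more effects of each agent passed the test when the other was present. EPZ changed 8403 genes (70.8%) on top of ENZ, 25.3% of tested genes upward and 45.5% downward. Alone it changed 6623 (55.8%), with 23.4% upward and 32.4% downward, and these 2 effects share no library. ENZ changed 8650 genes (72.8%) on top of EPZ, 29.2% upward and 43.7% downward, and 6733 (56.7%) alone, 27.9% upward and 28.8% downward. EPZ effects were called in both settings for 5545 genes (46.7%), in opposite directions for 340 (2.86%). Of these 340, 74 (0.623% of tested genes) were raised by EPZ on top of ENZ and lowered by it alone, and 266 (2.24%) were lowered on top of ENZ and raised alone. ENZ effects were called in both settings for 5753 genes (48.5%), in opposite directions for 250 (2.11%). Of these 250, 56 (0.472%) were raised on top of EPZ and lowered alone, and 194 (1.63%) were lowered on top of EPZ and raised alone.

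**Figure D1:**
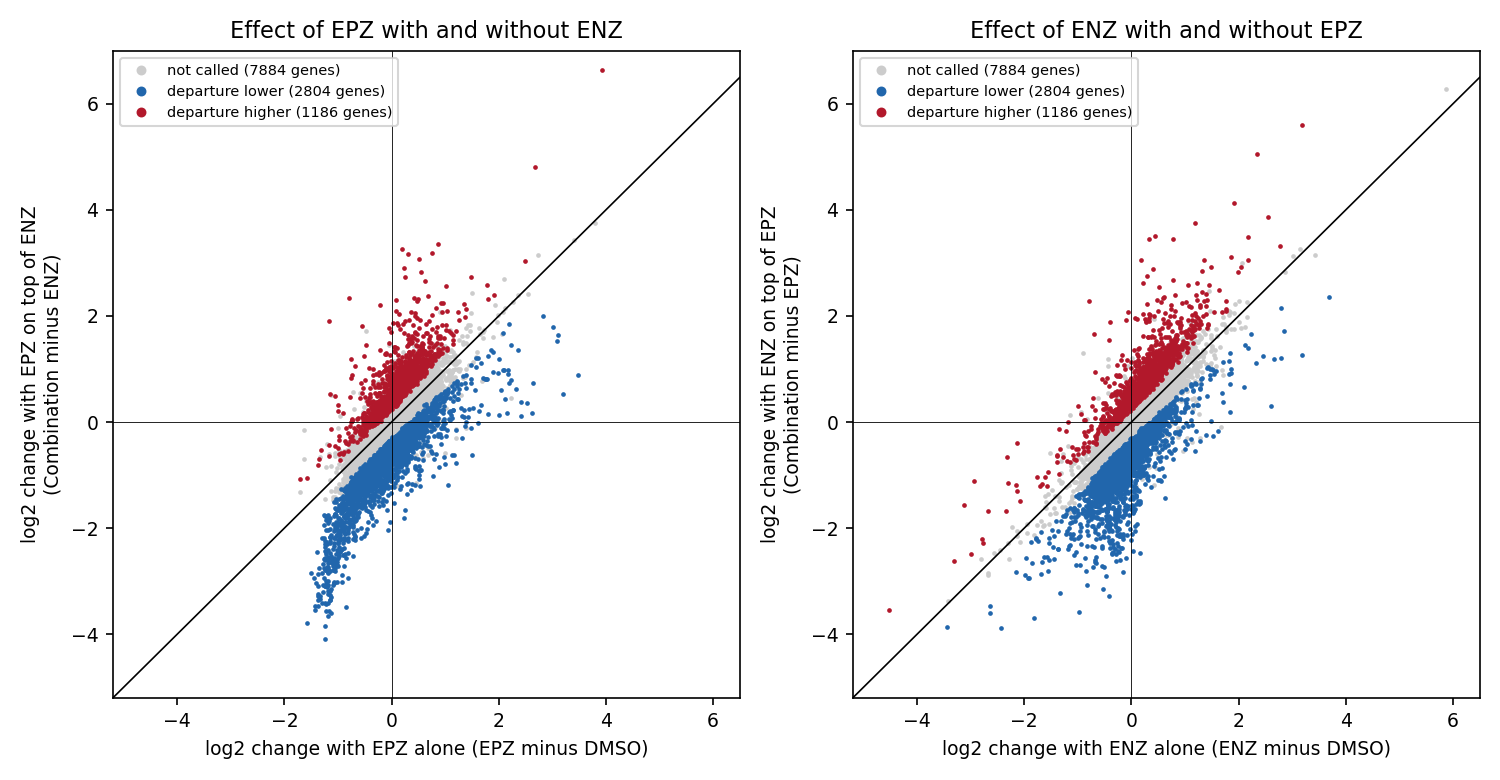
Log2 change with 1 agent on top of the other (vertical axis) against its log2 change alone (horizontal axis) for 11874 genes, EPZ on the left and ENZ on the right. Points on the diagonal are additive, red points are the 1186 genes called higher, blue points the 2804 called lower and grey points the others.

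Genes of G2/M and mitosis had the lowest departures of the 28 gene lists with at least 5 tested members. Of 50 tested members 49 were called lower and 0 higher, against 23.6% and 9.99% of all tested genes, with a median of -1.61 and a range of -2.65 to -0.23. The exception was CDC25B, a mitotic phosphatase, at -0.23 (SE 0.099, adjusted p = 0.0891). All 50 stood lower in both Combination libraries than in any other library. The median effect of EPZ on the list was -2.78 on top of ENZ and -1.14 alone, and the median effect of ENZ was -2.01 on top of EPZ and -0.28 alone. ENZ lowered 50 of the 50 on top of EPZ and 33 of the 50 alone. In bulk RNA, fewer cycling cells and less RNA per cell cannot be told apart. The counts of every list below stand against the same 23.6% lower and 9.99% higher of all tested genes.

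MKI67 stood at 2.62 and 2.22 FPKM in Combination, 36 and 38.6 with ENZ, 18.9 and 17.2 with EPZ and 32.5 and 33.7 with DMSO. Its additive expectation for Combination was 20.4 FPKM, and the departure was -2.65 (SE 0.11, adjusted p = 8.2e-07). ENZ alone gave a change of 0.17 that did not pass the test (adjusted p = 0.0929), whereas its effect on top of EPZ was -2.48 (SE 0.078, adjusted p = 5.9e-09) on the log2 scale. TOP2A, a DNA topoisomerase of dividing cells, stood at 3.62 and 3.51 FPKM in Combination, 50.3 and 58.2 with ENZ, 23.5 and 23.6 with EPZ and 51.1 and 54.9 with DMSO, with a departure of -2.46 (SE 0.11, adjusted p = 9e-07). CDK1, the kinase that drives entry into mitosis, stood at 5.27 and 5.69 FPKM in Combination, 69.1 and 82.6 with ENZ, 36.8 and 41 with EPZ and 90 and 95.2 with DMSO, a departure of -2.33 (SE 0.13, adjusted p = 2.14e-06). For these 3 genes the Combination libraries lay below the other 6, and ENZ lay nearer to DMSO than to EPZ.

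CDC20 showed an effect of each agent alone and a larger one together. It stood at 7.06 and 7.16 FPKM in Combination, 82.9 and 78.6 with ENZ, 52.6 and 52.9 with EPZ and 134 and 134 with DMSO, with an additive expectation of 31.5 FPKM and a departure of -2.0 (SE 0.074, adjusted p = 5.4e-07). MYBL2, a transcription factor that acts at CHR elements with the MuvB complex, stood at 3.9 and 4.34 FPKM in Combination, 74.1 and 71.1 with ENZ, 42.7 and 45.8 with EPZ and 104 and 107 with DMSO, with a departure of -2.61 (SE 0.09, adjusted p = 3.88e-07). KIAA0101, which encodes a PCNA-binding factor, stood at 1.88 and 1.69 FPKM in Combination, 31.9 and 36.3 with ENZ, 14.1 and 16.8 with EPZ and 36.8 and 36 with DMSO, a departure of -2.46 (SE 0.13, adjusted p = 1.86e-06). In each of these 3 genes the order of the groups was Combination lowest, then EPZ, with ENZ near or below DMSO.

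**Figure D2:**
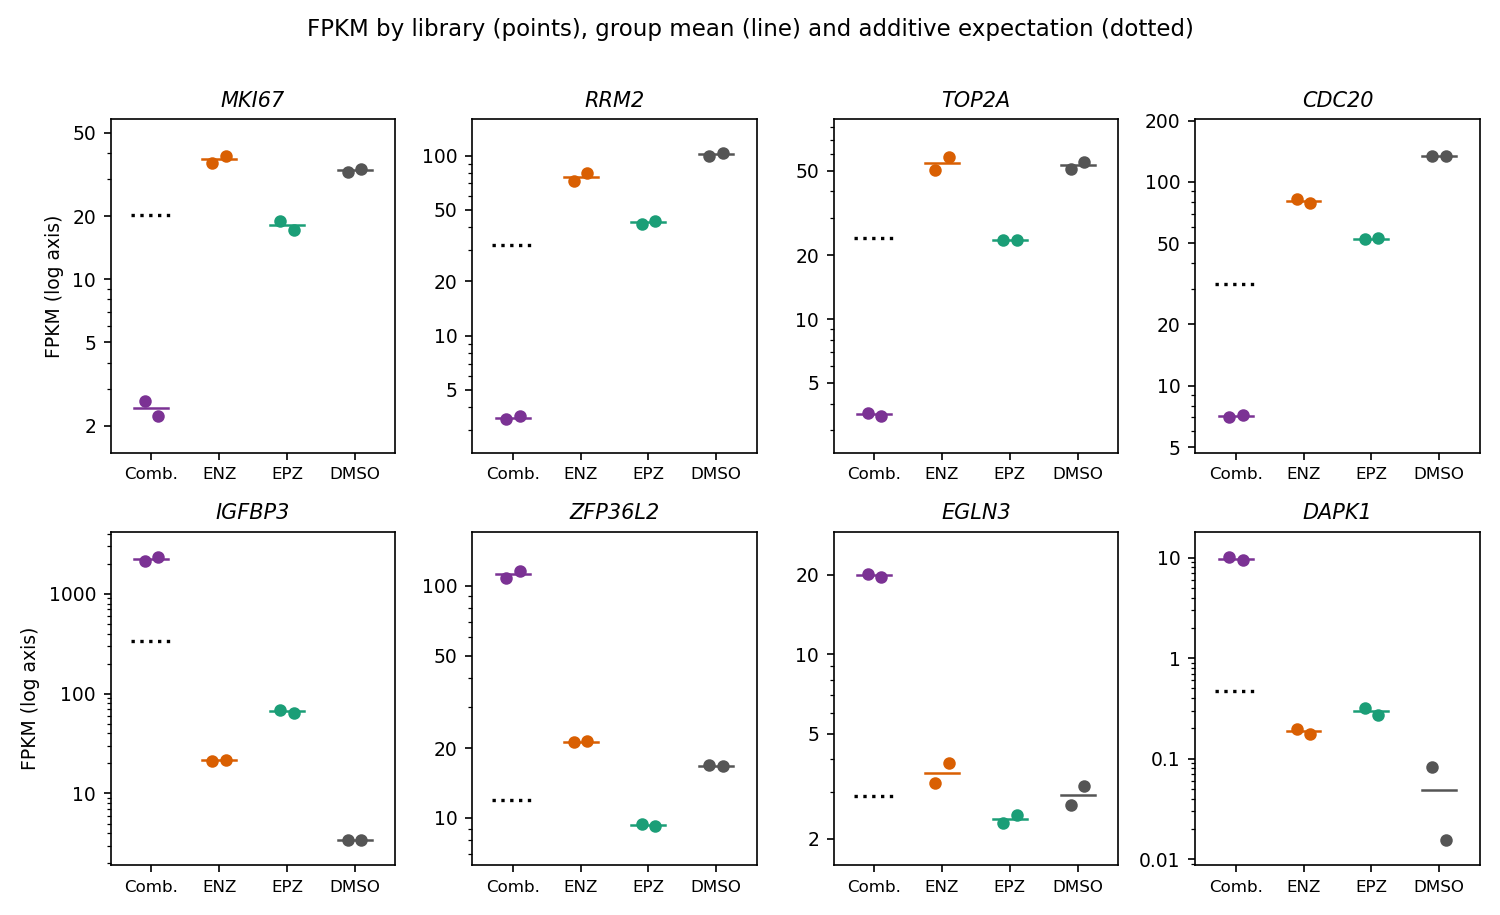
FPKM on a log axis in each library for 4 genes called lower (top row) and 4 called higher (bottom row), with lines at group means and a dotted line at the additive expectation for Combination. In MKI67 both Combination libraries lie at 2.62 and 2.22 FPKM, under an expectation of 20.4, and in IGFBP3 they lie above an expectation of 341.

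Genes of G1/S and DNA replication were also lower than additive. Of 48 tested members 47 were called lower and 0 higher, with a median of -1.20, and POLE, the catalytic subunit of a leading-strand polymerase, was the exception at -0.13 (SE 0.11, adjusted p = 0.371). With 1 added to FPKM, RRM2 had the lowest departure of all named genes. It stood at 3.44 and 3.58 FPKM in Combination, 71.8 and 80.3 with ENZ, 41.8 and 43.3 with EPZ and 100 and 103 with DMSO, against an additive expectation of 31.7 FPKM, a departure of -2.86 (SE 0.092, adjusted p = 2.88e-07). Its mean of 3.51 FPKM in Combination compared with 101 FPKM in DMSO, and 20.2% of its exonic length overlaps another annotated gene. MCM10, a replication initiation factor, stood at 0.775 and 0.672 FPKM in Combination, 18.3 and 20.4 with ENZ, 9.29 and 9.71 with EPZ and 21.4 and 23.7 with DMSO, with a departure of -2.39 (SE 0.11, adjusted p = 1.11e-06). With 0.1 added in place of 1, MCM10 was at -3.324, lower than RRM2 at -3.145. CDC45, part of the replicative helicase, departed by -2.10 (SE 0.088, adjusted p = 8.2e-07), and CDT1, which loads that helicase, by -1.85 (SE 0.082, adjusted p = 1.02e-06). The median effect of ENZ on the list was -1.44 on top of EPZ and -0.21 alone.

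Homologous recombination genes followed, with 17 of 23 tested members called lower and 1 higher and a median of -1.01. EXO1, a nuclease that resects broken ends, stood at 0.584 and 0.618 FPKM in Combination, 12.1 and 11.8 with ENZ, 6 and 5.96 with EPZ and 13.4 and 14.1 with DMSO, a departure of -1.93 (SE 0.093, adjusted p = 1.23e-06). With 0.1 added to FPKM in place of 1, EXO1 was at -2.914. BRCA1, a ubiquitin ligase subunit that promotes resection, departed by -1.69 (SE 0.11, adjusted p = 5.55e-06), and FANCI, of the Fanconi anaemia complex, by -1.62 (SE 0.093, adjusted p = 3.11e-06). The member called higher was BARD1, the partner of BRCA1, at 0.52 (SE 0.1, adjusted p = 0.00307), named after its value was seen. EPZ lowered all 23 members both on top of ENZ and alone. ENZ lowered 21 on top of EPZ but 2 alone, where 4 were raised.

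Fatty acid synthesis genes were called lower in 13 of 16 tested members and higher in 1, with a median of -0.86. SCD, the stearoyl-CoA desaturase, stood at 31.1 and 34 FPKM in Combination, 133 and 139 with ENZ, 203 and 213 with EPZ and 219 and 216 with DMSO, so that EPZ alone differed little from DMSO. Against an additive expectation of 130.3 FPKM its departure was -1.97 (SE 0.083, adjusted p = 8.2e-07). The desaturases FADS1 and FADS2 departed by -1.80 (SE 0.083, adjusted p = 1.08e-06) and -1.66 (SE 0.082, adjusted p = 1.4e-06). The median effect of EPZ on the list was -0.62 on top of ENZ and 0.24 alone, so the list's median effect differed in sign between the settings.

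Endoplasmic reticulum chaperone genes showed the same kind of sign change. Of 21 tested members 18 were called lower and 0 higher, with a median departure of -0.79 (-0.48 under quantile normalization), and the median effect of EPZ was -0.39 on top of ENZ and 0.51 alone. EPZ lowered 13 and raised 4 on top of ENZ, and lowered 1 and raised 17 alone. HSPA5, the chaperone BiP, stood at 111 and 115.7 FPKM in Combination, 134 and 139.5 with ENZ, 229.8 and 252 with EPZ and 138 and 139.6 with DMSO, a departure of -1.06 (SE 0.082, adjusted p = 1.46e-05). HSP90B1, the chaperone GRP94, stood at 158 and 173 FPKM in Combination, 232 and 255 with ENZ, 376 and 401 with EPZ and 229 and 236 with DMSO, a departure of -1.29 (SE 0.094, adjusted p = 9.68e-06). In both genes EPZ was the highest group and Combination the lowest. MANF, a secreted stress-response factor of the same compartment, departed by -0.99 (SE 0.08, adjusted p = 1.82e-05).

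Hypoxia and glycolysis genes were called lower in 20 of 28 tested members and higher in 1, with a median of -0.71, or -0.45 under quantile normalization. LDHA, lactate dehydrogenase, stood at 30.6 and 29.8 FPKM in Combination, 112 and 118 with ENZ, 167 and 188 with EPZ and 241 and 243 with DMSO, a departure of -1.45 (SE 0.091, adjusted p = 4.42e-06). GAPDH departed by -1.13 (SE 0.078, adjusted p = 7.92e-06), although 14.2% of its exonic length overlaps an antisense gene, and the strand setting of the counting is not given. NDRG1, a stress-induced gene that is also androgen-induced, stood at 45.1 and 43.4 FPKM in Combination, 15.6 and 13.8 with ENZ, 153 and 166 with EPZ and 17.9 and 17.9 with DMSO, a departure of -1.56 (SE 0.097, adjusted p = 4.42e-06). EPZ raised NDRG1 in both settings, by 1.53 on top of ENZ and 3.09 alone. The member called higher was EGLN3, a prolyl hydroxylase that marks HIF for degradation. EGLN3 stood at 20.1 and 19.7 FPKM in Combination, 3.26 and 3.86 with ENZ, 2.3 and 2.45 with EPZ and 2.69 and 3.17 with DMSO, a departure of 2.42 (SE 0.13, adjusted p = 1.83e-06), and neither agent alone changed it past the test (adjusted p = 0.0657 for ENZ and 0.0644 for EPZ).

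Ribosomal protein genes were called lower in 48 of 54 tested members and higher in 0, with a narrower spread, from -0.95 to -0.29 around a median of -0.64. RPL4 of the large subunit stood at 223 and 228 FPKM in Combination, 516 and 544 with ENZ, 505 and 537 with EPZ and 653 and 664 with DMSO, a departure of -0.89 (SE 0.074, adjusted p = 2.25e-05). Ribosome biogenesis genes were called lower in 24 of 28 members and higher in 0, with a median of -0.58. NOP56, a nucleolar methylation factor, departed by -1.10 (SE 0.081, adjusted p = 1.1e-05), NPM1, nucleophosmin, by -0.97 (SE 0.089, adjusted p = 3.97e-05), and MYC, a transcription factor that drives such genes, by -1.06 (SE 0.075, adjusted p = 8.91e-06). These genes are abundant, and departure ran with abundance over all tested genes. Its median was 0.06 in the lowest of 8 bins of mean FPKM and -0.39 in the highest. The part of abundance in the ribosomal values was not tested, and after quantile normalization their median was -0.31, with 38 called lower and 1 higher. Many ribosomal protein genes also share reads with processed pseudogenes, so single values are uncertain.

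**Figure D3:**
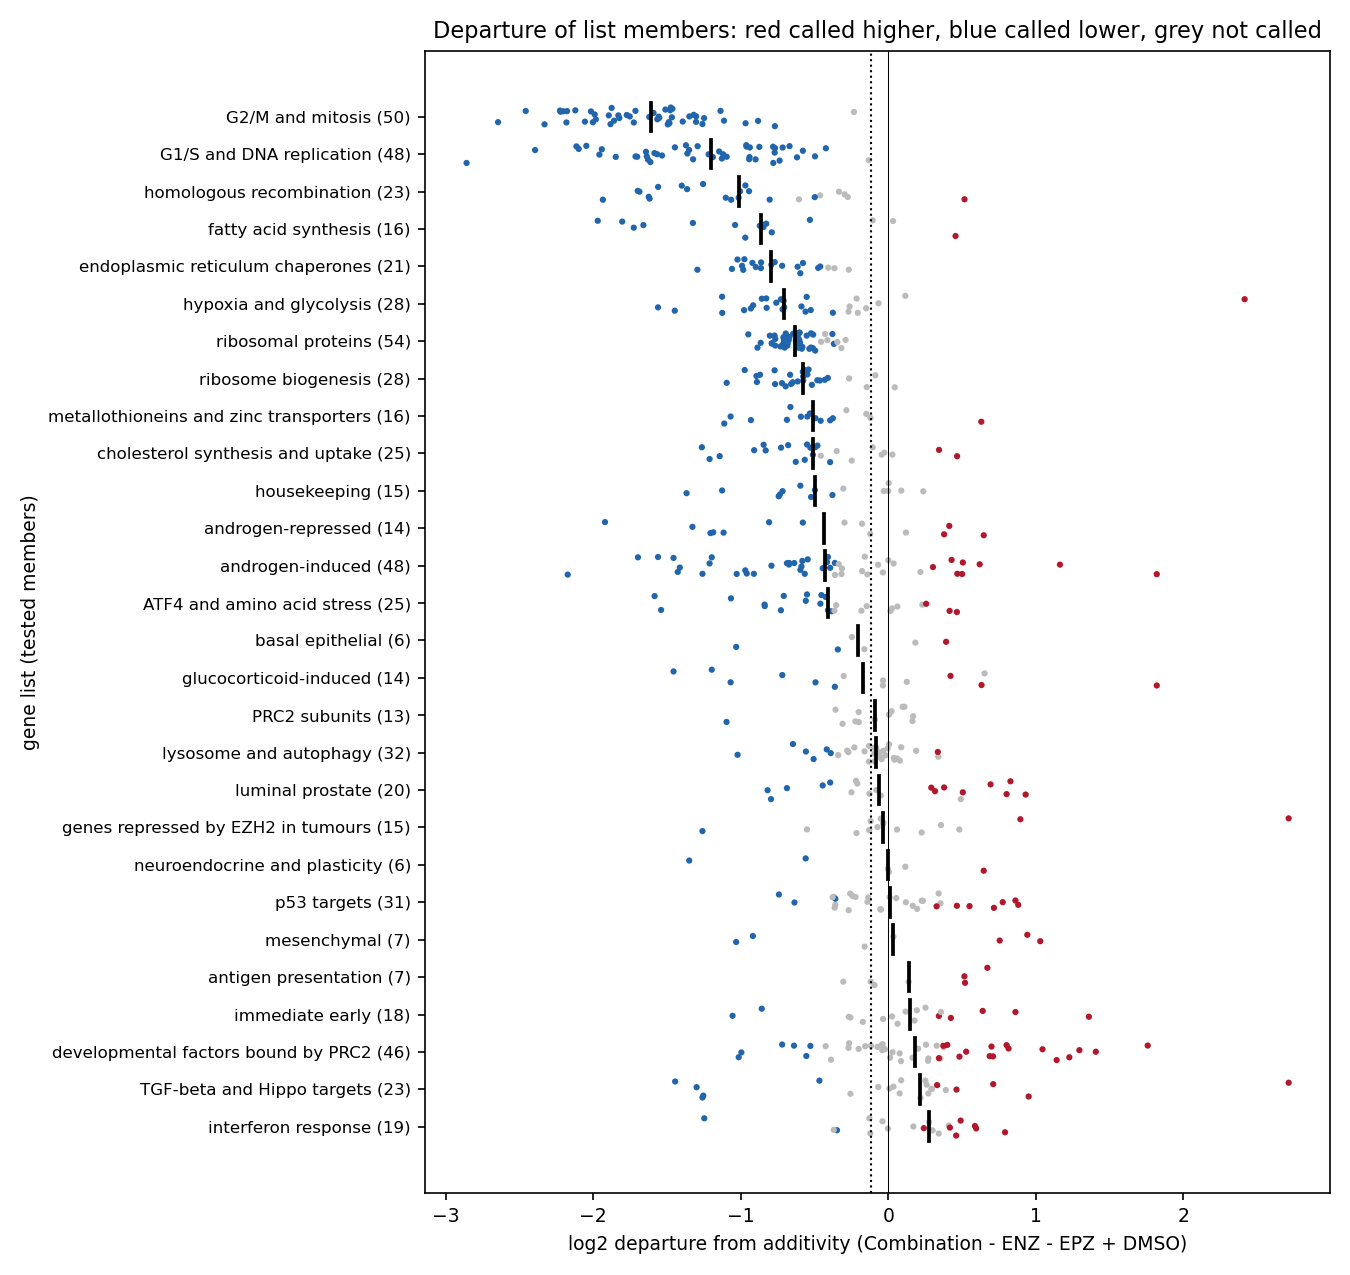
Log2 departure of every tested member of the 28 gene lists with at least 5 tested members, ordered by list median (black bars), with the median of all tested genes dotted at -0.12. Red members are called higher, blue lower and grey neither, with G2/M genes at a median of -1.61 and interferon response genes at 0.28.

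The other lists lay closer to the median of all tested genes. Metallothionein and zinc transporter genes had a median of -0.51 (12 of 16 called lower, 1 higher), as had cholesterol synthesis genes (16 of 25 lower, 2 higher). Housekeeping genes had a median of -0.50 (9 of 15 lower, 0 higher), which quantile normalization moved to -0.12. Among the cholesterol genes INSIG1, which retains SREBP in the endoplasmic reticulum, departed by -1.14 (SE 0.07, adjusted p = 4.17e-06). ATF4 and amino acid stress genes had a median of -0.41 (14 of 25 lower, 3 higher), with the amino acid transporter gene SLC7A5 at -1.54 (SE 0.1, adjusted p = 7.1e-06). Lists with medians between -0.20 and 0.15 were those of basal, glucocorticoid-induced, PRC2 subunit, lysosome, luminal, EZH2-repressed tumour, neuroendocrine, p53, mesenchymal, antigen presentation and immediate early genes. These medians moved with the settings: mesenchymal genes were at 0.48 under quantile normalization, and neuroendocrine genes at 0.33 and antigen presentation genes at 0.52 with a mean of at least 5 FPKM.

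The 12 highest departures included genes near 0 FPKM in DMSO and genes with clear levels in every group. ZFP36L2, an RNA-binding protein that destabilises AU-rich transcripts, stood at 108 and 115.6 FPKM in Combination, 21.3 and 21.4 with ENZ, 9.38 and 9.24 with EPZ and 16.8 and 16.7 with DMSO. Against an additive expectation of 12 FPKM its departure was 3.12 (SE 0.08, adjusted p = 1.04e-07). IGFBP3, a secreted binder of insulin-like growth factors, stood at 2152 and 2331 FPKM in Combination, 21.3 and 21.6 with ENZ, 69.2 and 64.1 with EPZ and 3.45 and 3.45 with DMSO. The additive expectation of 341 FPKM already exceeded either agent alone, and the departure was 2.71 (SE 0.086, adjusted p = 2.88e-07). IGFBP3 is also a member of the TGF-beta and EZH2-repressed lists. LRRN1, a leucine-rich repeat membrane protein, stood at 97.5 and 111 FPKM in Combination, 10.4 and 10.8 with ENZ, 1.21 and 1.11 with EPZ and 0.271 and 0.284 with DMSO, a departure of 2.42 (SE 0.11, adjusted p = 1.02e-06). For all 3 genes the Combination libraries stood above the other 6 by more than the spread within any group.

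TNC, the matrix glycoprotein tenascin-C, stood at 12.2 and 12.3 FPKM in Combination, 0.338 and 0.411 with ENZ, 0.2 and 0.12 with EPZ and 0.0151 and 0 with DMSO, a departure of 3.06 (SE 0.13, adjusted p = 9e-07). DAPK1, a calmodulin-regulated kinase linked to cell death, stood at 10.1 and 9.37 FPKM in Combination, 0.198 and 0.175 with ENZ, 0.32 and 0.271 with EPZ and 0.0827 and 0.0157 with DMSO, a departure of 2.87 (SE 0.14, adjusted p = 1.11e-06). The uroplakin genes UPK1A and UPK2, which encode plaque proteins of the urothelium, averaged 12.1 and 18.6 FPKM in Combination, and at most 0.75 and 1.34 FPKM in the other groups. Their departures were 2.67 (SE 0.15, adjusted p = 2.62e-06) and 2.56 (SE 0.14, adjusted p = 2.21e-06), and 18.9% of the exonic length of UPK1A overlaps an antisense gene. The remaining genes among the 12 highest were TENM2, a teneurin adhesion protein, at 2.5, PRR16 at 2.47, C9orf47 at 2.03 and P3H2, a collagen prolyl hydroxylase, at 2.02. In each of these genes both Combination libraries lay above all 6 others. TNC, DAPK1, UPK1A, TENM2, PRR16 and C9orf47 averaged under 1 FPKM in every other group, and UPK2 did in EPZ and DMSO. These genes passed the filter only through Combination, so their position above the other libraries largely followed from the filter. Near 0 FPKM the size of a departure rests on the pseudocount: with 0.1 in place of 1 it was 1.54 for UPK2, 1.55 for LRRN1, 2.10 for TENM2 and 3.44 for TNC. On FPKM ratios with no pseudocount it was -0.32 for UPK2, 0.92 for UPK1A, 1.24 for LRRN1, 1.2 for TENM2 and 0.62 for TNC. In DMSO, UPK2 stood at 0 and 0.0528 FPKM and TNC at 0.0151 and 0 FPKM.

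**Figure D4:**
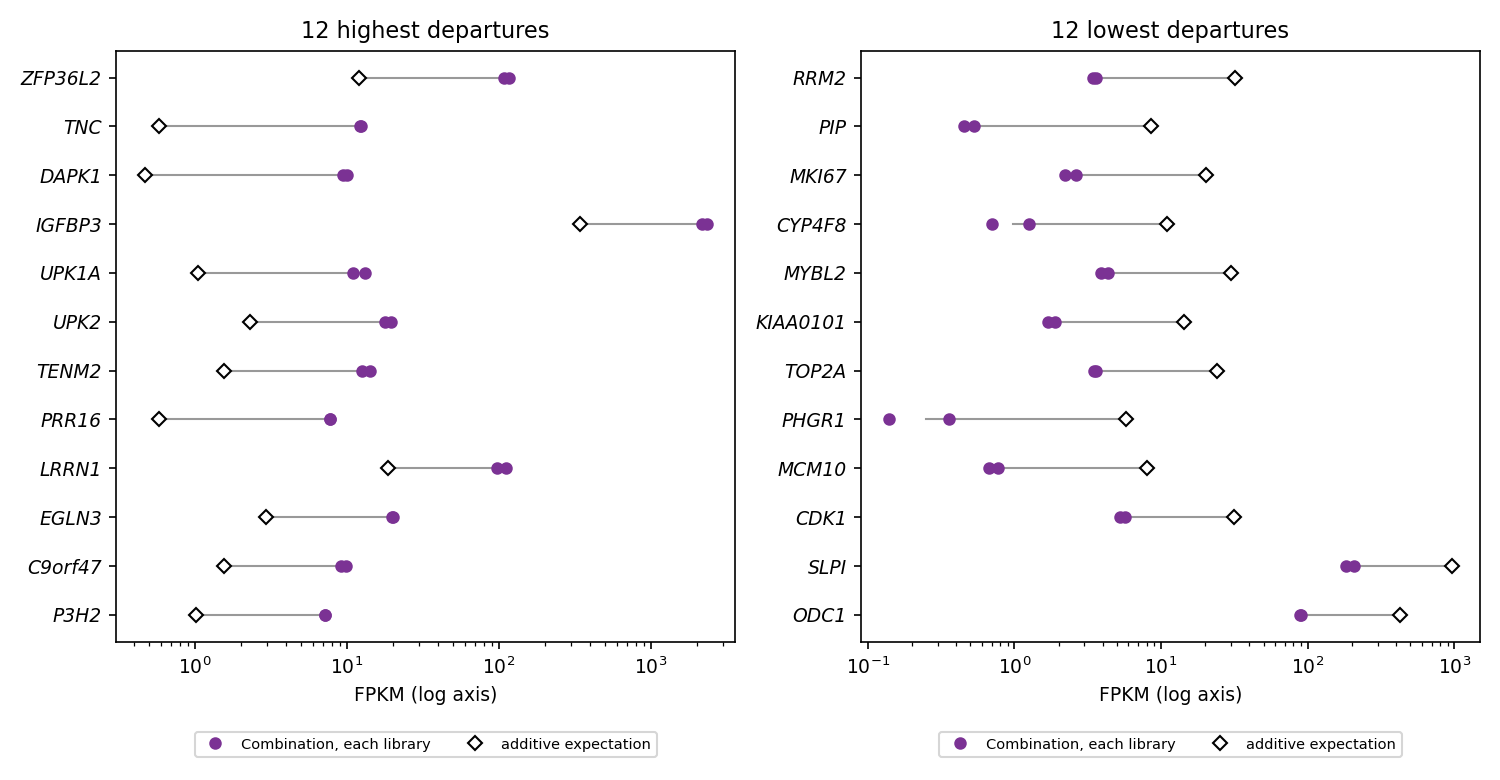
FPKM on a log axis of both Combination libraries (purple) and the additive expectation (open diamonds) for the 12 highest departures (left) and the 12 lowest (right). ZFP36L2 lies at 108 and 115.6 FPKM, above an expectation of 12, and RRM2 at 3.44 and 3.58 FPKM, under an expectation of 31.7.

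Of the 12 lowest departures, 5 were outside the cell-cycle classes, and in each EPZ alone stood above DMSO. PIP, a secreted prolactin-induced protein, stood at 0.45 and 0.53 FPKM in Combination, 0 and 0.0797 with ENZ, 8.46 and 10.8 with EPZ and 0.225 and 0.0856 with DMSO, a departure of -2.68 (SE 0.18, adjusted p = 6.3e-06). CYP4F8, a cytochrome P450, stood at 1.25 and 0.705 FPKM in Combination, 0.0817 and 0.0481 with ENZ, 22.9 and 21.9 with EPZ and 1.22 and 0.957 with DMSO, a departure of -2.61 (SE 0.18, adjusted p = 8.12e-06). PHGR1 departed by -2.44 (SE 0.19, adjusted p = 1.39e-05), with means of 0.249 FPKM in Combination, 0.105 in ENZ, 8.34 in EPZ and 0.525 in DMSO. These 3 genes were high in EPZ, through which alone they passed the filter, and at or under 1.25 FPKM in the other groups. With a pseudocount of 0.1 their departures were -3.16, -1.58 and -2.85. On FPKM ratios with no pseudocount they were -2.33, -0.45 and -2.75, so the fold change of CYP4F8 lay nearer to additive. SLPI, a secreted protease inhibitor, behaved otherwise. It stood at 182 and 207 FPKM in Combination, 189.9 and 167 with ENZ, 156 and 157 with EPZ and 25 and 32.2 with DMSO, so every treated group lay above DMSO and Combination overlapped ENZ. Its departure of -2.30 (SE 0.16, adjusted p = 7.14e-06) was set against an additive expectation of 958 FPKM.

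The fifth was ODC1, ornithine decarboxylase, the entry enzyme of polyamine synthesis, and it was joined by SMS, spermine synthase. ODC1 stood at 89.5 and 88.6 FPKM in Combination, 203 and 206 with ENZ, 714 and 803 with EPZ and 372 and 361 with DMSO, a departure of -2.24 (SE 0.085, adjusted p = 5.67e-07). SMS stood at 19.3 and 18.3 FPKM in Combination, 32.8 and 32.5 with ENZ, 130.4 and 146 with EPZ and 60.4 and 59.2 with DMSO, a departure of -1.96 (SE 0.091, adjusted p = 1.09e-06). In both genes EPZ was the highest group and Combination the lowest, without overlap of any libraries. The effect of EPZ on ODC1 was -1.19 (SE 0.06) on top of ENZ and 1.05 (SE 0.06) alone, and on SMS it was -0.77 (SE 0.064) on top of ENZ and 1.19 (SE 0.064) alone.

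Androgen-induced genes departed in both directions. Of 48 tested members 28 were called lower and 8 higher, with a median of -0.43. EPZ raised 31 of the 48 on top of ENZ and 43 alone, and ENZ lowered 43 on top of EPZ and 41 alone. TMPRSS2, a membrane serine protease, stood at 86.1 and 88.4 FPKM in Combination, 19.7 and 20 with ENZ, 381 and 396 with EPZ and 92.3 and 90.1 with DMSO, and its additive expectation was 87.2 FPKM. Its departure of 0.0004 did not pass the test (SE 0.071, adjusted p = 0.997). KLK2, a kallikrein protease, stood at 29.5 and 27.1 FPKM in Combination, 6.46 and 5.97 with ENZ, 299 and 308 with EPZ and 72 and 80.1 with DMSO, with a departure of 0.04 (SE 0.1, adjusted p = 0.801) that did not pass either. For both genes the effects of EPZ and ENZ were of like size with and without the other agent, at 2.08 and 2.08 for EPZ on TMPRSS2. Quantile normalization called both higher, at 0.34 for TMPRSS2 and 0.31 for KLK2.

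KLK3, the gene of prostate-specific antigen, stood at 383 and 400.2 FPKM in Combination, 225 and 223 with ENZ, 2800.4 and 2803 with EPZ and 978 and 1015 with DMSO, and departed by -0.69 (SE 0.067, adjusted p = 5.55e-05) from an expectation of 631 FPKM, or by -0.21 under quantile normalization. EPZ raised KLK3 by 0.80 on top of ENZ and 1.49 alone. Because the sequences of KLK2 and KLK3 resemble each other, counting could split their reads. FKBP5, a co-chaperone of steroid receptors, stood at 4.69 and 4.28 FPKM in Combination, 8.69 and 9.79 with ENZ, 77.7 and 82.6 with EPZ and 53.7 and 54.5 with DMSO, a departure of -1.46 (SE 0.1, adjusted p = 7.92e-06). EPZ lowered FKBP5 on top of ENZ (-0.90) and raised it alone (0.56).

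STEAP4, a metalloreductase, had the lowest departure of the list at -2.17 (SE 0.13, adjusted p = 4.05e-06), with means of 0.331 FPKM in Combination, 0.0428 in ENZ, 7.77 in EPZ and 0.525 in DMSO. On FPKM ratios with no pseudocount STEAP4 was at -0.94. STEAP4 passed the filter only through EPZ, so its height in that group largely followed from the filter. ALDH1A3, a retinaldehyde dehydrogenase, departed by -1.70 (SE 0.1, adjusted p = 3.93e-06), although 27.5% of its exonic length overlaps an antisense gene. The highest was ZBTB16, the transcription factor PLZF, at 1.82 (SE 0.13, adjusted p = 8.12e-06). ZBTB16 stood at 9.22 and 8.47 FPKM in Combination, 0.856 and 1.12 with ENZ, 20.5 and 20.1 with EPZ and 15.2 and 13.2 with DMSO, so ENZ lowered it less on top of EPZ than alone. SLC45A3, prostein, departed by -0.42 (SE 0.1, adjusted p = 0.0111) as deposited, a call that was lost without EPZ replicate 2 (-0.38), under quantile normalization (-0.28) and at a pseudocount of 0.1 (-0.26).

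**Figure D5:**
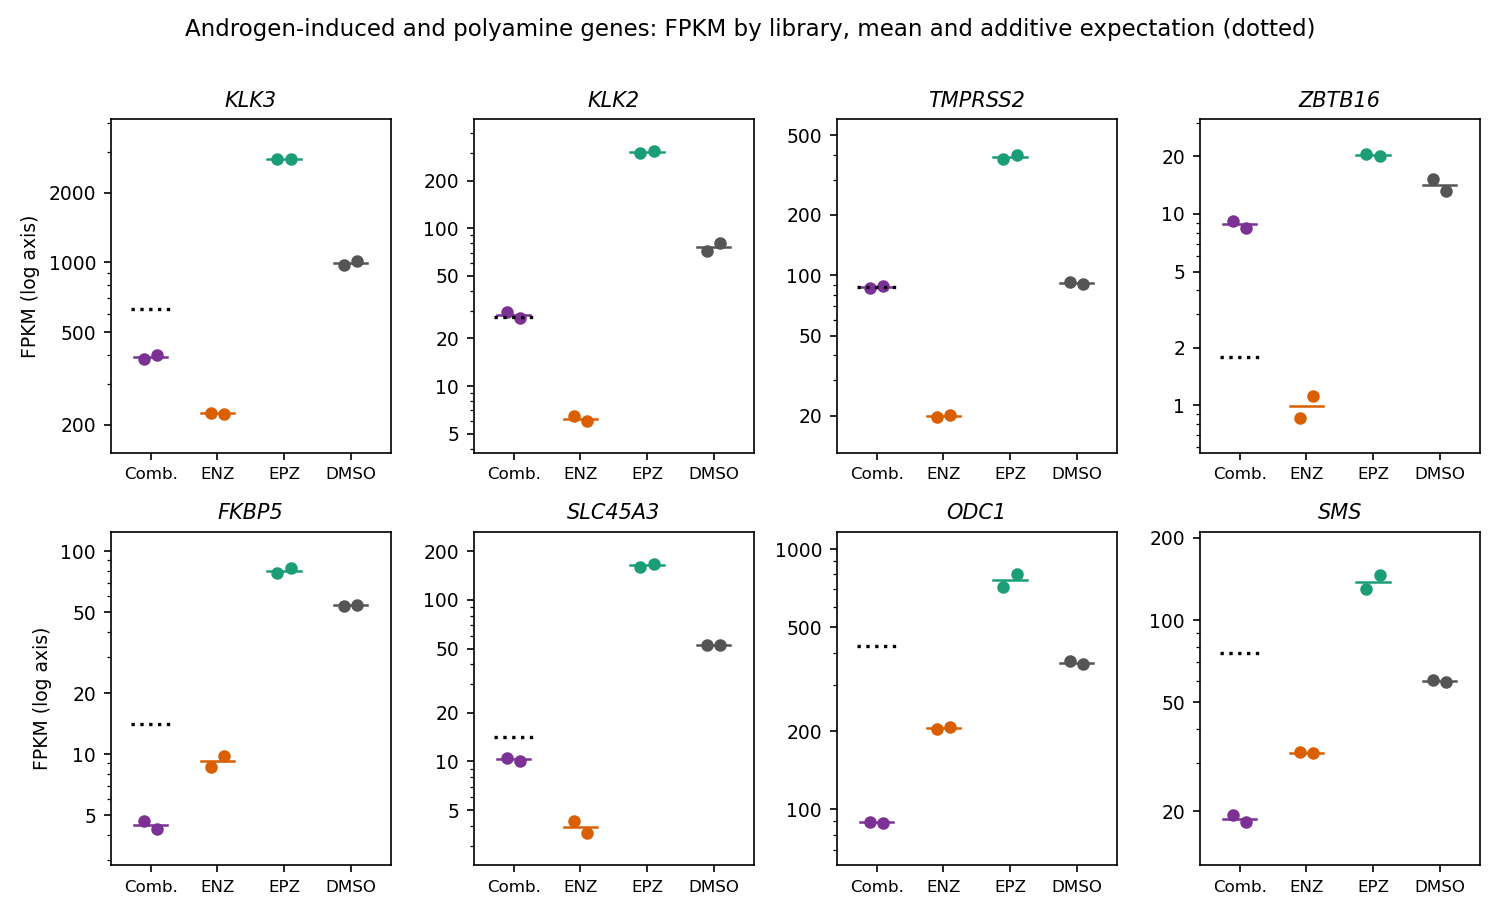
FPKM on a log axis in each library for 6 androgen-induced genes and the polyamine genes ODC1 and SMS, with lines at group means and a dotted line at the additive expectation for Combination. TMPRSS2 and KLK2 lie at their expectations, at 87.2 and 27.6 FPKM, and FKBP5, ODC1 and SMS lie below theirs.

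Androgen-repressed genes were called lower in 7 of 14 tested members and higher in 3, with a median of -0.44 that moved to -0.0015 among members with a mean of at least 5 FPKM. BCHE, butyrylcholinesterase, stood at 3.14 and 3.12 FPKM in Combination, 11.4 and 12.9 with ENZ, 0.653 and 0.787 with EPZ and 0.344 and 0.544 with DMSO, so Combination lay below ENZ and above DMSO, a departure of -1.92 (SE 0.14, adjusted p = 1.09e-05). ACKR3, a scavenging chemokine receptor, stood at 30.4 and 36.8 FPKM in Combination, 61.7 and 58.2 with ENZ, 5.58 and 5.84 with EPZ and 3.55 and 3.92 with DMSO, a departure of -1.33 (SE 0.13, adjusted p = 5.1e-05).

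Of the 13 tested PRC2 subunit genes, EZH2 was the member called, at -1.10 (SE 0.1, adjusted p = 4.26e-05). It stood at 6.47 and 6.28 FPKM in Combination, 23.4 and 26.3 with ENZ, 16.1 and 14.7 with EPZ and 26.2 and 25.4 with DMSO, and the effect of EPZ on it was -1.81 on top of ENZ and -0.71 alone on the log2 scale. EZH2 transcript is known to follow proliferation, whose part in this departure was not tested. EZH2 is the target of EPZ6438 as a protein, which these data do not measure. Developmental factors bound by PRC2 were called higher in 16 of 46 tested members (34.8%) and lower in 6 (13%), against 9.99% and 23.6% of all tested genes. Their median was 0.18, with 0.07 without DMSO replicate 1, 0.12 without ENZ replicate 2 and 0.38 under quantile normalization. HOXA11, a posterior homeobox factor, stood at 16.4 and 14.5 FPKM in Combination, 6.24 and 5.57 with ENZ, 2.3 and 2.09 with EPZ and 3.93 and 3.18 with DMSO, a departure of 1.76 (SE 0.14, adjusted p = 1.99e-05). HOXA11 overlaps its antisense gene over 31.1% of its exonic length, so the strand of those reads is uncertain. ZIC2, a zinc finger factor of the neural plate, departed by 1.23 (SE 0.1, adjusted p = 2.25e-05) and GATA2, a pioneer factor in luminal cells, by 0.80 (SE 0.089, adjusted p = 0.000124). The lowest of the list was DLX2, a homeobox factor, at -1.01 (SE 0.16, adjusted p = 0.000865), named after its value was seen.

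Interferon response genes had the highest list median as deposited, 0.28, with 7 of 19 tested members called higher (36.8%) and 2 lower (10.5%). They were not highest with a mean of at least 5 FPKM, where antigen presentation genes were at 0.52 and interferon genes at 0.21. Nor were they with a pseudocount of 0.1, where mesenchymal genes were at 0.47 and interferon genes at 0.33. PARP14, an ADP-ribosyltransferase, stood at 8.46 and 8.25 FPKM in Combination, 3.26 and 3.71 with ENZ, 1.97 and 2.03 with EPZ and 1.5 and 1.48 with DMSO, a departure of 0.79 (SE 0.11, adjusted p = 0.000518). IRF7, a transcription factor of the interferon response, stood at 9.3 and 10.6 FPKM in Combination, 6.61 and 5.72 with ENZ, 6.09 and 5.82 with EPZ and 5.84 and 5.92 with DMSO, and departed by 0.60 (SE 0.12, adjusted p = 0.00371) with Combination above groups that overlapped each other. OAS3, which senses double-stranded RNA, departed downward by -1.25 (SE 0.11, adjusted p = 2.81e-05). Antigen presentation genes were called higher in 3 of 7 and lower in 0, among them HLA-B at 0.52 (SE 0.1, adjusted p = 0.00306) and HLA-C at 0.67 (SE 0.11, adjusted p = 0.00133). HLA-B and HLA-C can share reads, so both values are uncertain.

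TGF-beta and Hippo targets were called higher in 5 of 23 (21.7%) and lower in 5 (21.7%), against 9.99% and 23.6% of all tested genes. Their median was 0.22, or 0.43 under quantile normalization. BAMBI, a decoy receptor of TGF-beta signalling, stood at 42.4 and 46.7 FPKM in Combination, 28 and 30 with ENZ, 27.6 and 28.3 with EPZ and 6.17 and 5.86 with DMSO, a departure of -1.44 (SE 0.095, adjusted p = 5.94e-06). Combination was thus the highest group and still below its additive expectation of 123 FPKM. Among mesenchymal genes FN1, fibronectin, departed by -0.92 (SE 0.09, adjusted p = 5.71e-05) in the same manner, and VIM, vimentin, by 0.94 (SE 0.093, adjusted p = 5.91e-05), with means of 24.6 FPKM in Combination, 13.1 in ENZ, 11.3 in EPZ and 12 in DMSO. An antisense gene overlaps 12.4% of the exonic length of VIM. The p53 targets were called higher in 7 of 31 (22.6%) and lower in 3 (9.68%), against 9.99% and 23.6% of all tested genes. BTG2, an antiproliferative factor, was among those called higher, at 0.86 (SE 0.081, adjusted p = 4.71e-05). CDKN1A, the cyclin-dependent kinase inhibitor p21, stood at 39.4 and 41.6 FPKM in Combination, 22.6 and 20.6 with ENZ, 52 and 53.1 with EPZ and 33.8 and 32.5 with DMSO. Its departure of 0.23 (SE 0.088, adjusted p = 0.0664) did not pass as deposited, and passed after median-of-ratios scaling at 0.31 (adjusted p = 0.0157).

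TRIB2 and PLA2G2A changed much, and neither departure passed the test as deposited. TRIB2, a pseudokinase, stood at 99.2 and 107 FPKM in Combination, 6.51 and 6.88 with ENZ, 58.1 and 58.3 with EPZ and 3.4 and 3.18 with DMSO, with an expectation of 105 FPKM and a departure of -0.03 (SE 0.089, adjusted p = 0.793). PLA2G2A, a secreted phospholipase, stood at 844 and 948 FPKM in Combination, 103 and 96.6 with ENZ, 11.7 and 9.37 with EPZ and 0.565 and 0.907 with DMSO, with an expectation of 667 FPKM and a departure of 0.42 (SE 0.16, adjusted p = 0.0647). A p-value that misses the threshold does not show that these genes were additive. The departure of PLA2G2A passed after median-of-ratios scaling, at 0.50 (adjusted p = 0.0369), and under quantile normalization, at 1.26, and was -0.53 at a pseudocount of 0.1, which did not pass. Quantile normalization also called TRIB2 higher, at 0.61.

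Additivity on the log2 scale means that fold changes multiply, and the reading changes where effects are added in FPKM. On that linear scale 12 of the 1186 genes called higher and 106 of the 2804 called lower had the opposite sign. In the G2/M list this held for 8 of the 49 called members, and for 5 members the linear expectation was below 0, which no level can reach. CDC20 is such a gene, with a linear expectation of -0.628 FPKM beside an observed mean of 7.11 FPKM in Combination. MKI67 departed downward on both scales, with a linear expectation of 22.2 FPKM, and so did RRM2 with one of 17.2 FPKM.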

How the data were processed

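The authors deposited FPKM values for 8 libraries of human C4-2B cells, read here as deposited, and the submitters' processing notes name STAR and the hg38 build. Not given in the sources used here are the counting tool, the annotation and strand. Libraries were matched to groups by the labels. Depth was estimated from the whole-number steps between low FPKM values. A linear model of log2(FPKM + 1) with 4 group means was fitted to all 8 libraries with limma 3.58.1 in R 4.3.3 (moderated two-sided test, expression trend) for genes averaging 1 FPKM or more, as deposited and after median-of-ratios scaling, with Benjamini-Hochberg adjustment over 11874 genes at 0.05. The fit was tested on simulated data of 11874 genes, with 200 changed in Combination only. It recovered 56.7% of 1.5-fold, 80.6% of 2-fold and 98.5% of 4-fold changes, and 6.55% of its calls were false. The simulation held no effects of single agents and far fewer changed genes than were called here, so these rates may not hold for the deposited data. Fold changes on the log2(FPKM + 1) scale understate changes of low genes. Replicate numbers were not used to pair samples in the main fit. Deviations of same-numbered libraries correlated at -0.0153 to 0.109 across genes, which cannot exclude a pairing that touches some genes. The gene lists and the genes always named were chosen with earlier results of these data known. Named genes are the 12 highest and 12 lowest departures, up to 3 called members of each list by p, 14 fixed genes and the 5 strongest opposite effects for each agent, with antisense, clone-named and small RNA genes left out. Some named genes are not reported here. Genes named after their values were seen are marked or are a list's exceptions or range ends. Alternatives were quantile normalization, a pseudocount of 0.1, no filter or a mean of at least 5 FPKM, no variance trend, a replicate block, leaving out each library, and a gene length correction (GENCODE 29, 94.9% of genes) added after seeing the data.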

Additional observations from a re-analysis of the deposited data

Results flagged for a closer look

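In 10 named genes an agent's effect with the other present went against its effect alone, each past limma's adjusted threshold, with the departure as the test of the difference. They were taken as the 5 largest departures for each agent, so their size was chosen and not found. EPZ lowered ODC1 on top of ENZ and raised it alone (departure -2.24), and the same held for SMS (-1.96) and HIST1H2BJ, a histone H2B gene (-1.79). HIST1H2BJ stood at 3.34 and 3.81 FPKM in Combination, 9.17 and 7.44 with ENZ, 21 and 23.3 with EPZ and 12.4 and 12.6 with DMSO, and histone genes share reads with near-identical copies. EPZ raised HOXA11 on top of ENZ and lowered it alone (1.76), as it did ZFP36L2 (3.12).

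ENZ lowered the other 5 genes on top of EPZ and raised them alone. MAN1A1, a Golgi mannosidase, departed by -1.65 and stood at 2.45 and 2.94 FPKM in Combination, 4.72 and 4.92 with ENZ, 3.77 and 3.7 with EPZ and 1.38 and 1.39 with DMSO. BRCA2, a homologous recombination gene, departed by -1.62 and stood at 1.47 and 1.45 FPKM in Combination, 9.12 and 11.5 with ENZ, 4.4 and 4.15 with EPZ and 7.13 and 6.54 with DMSO. NMU, the neuropeptide neuromedin U, departed by -1.59 and stood at 0.959 and 1.19 FPKM in Combination, 6.93 and 6.22 with ENZ, 3.37 and 4.33 with EPZ and 4.73 and 5.01 with DMSO. DHRS3, a retinal reductase, departed by -1.45 and stood at 7.26 and 8.27 FPKM in Combination, 4.76 and 3.73 with ENZ, 10.6 and 10.7 with EPZ and 1.81 and 1.32 with DMSO. LIFR, a cytokine receptor of the androgen-induced list, departed by -1.41 and stood at 9.54 and 9.52 FPKM in Combination, 7.41 and 8.77 with ENZ, 20.1 and 20.6 with EPZ and 5.83 and 5.96 with DMSO. BRCA2 and NMU were lowest in Combination, whereas MAN1A1, DHRS3 and LIFR in Combination lay between DMSO and the highest group.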

How the results depend on the processing

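Counts of departing genes were 4540 with a pseudocount of 0.1, 4897 with no filter, 4629 with no variance trend and 4633 with the length correction, against 4703 as deposited. The replicate block gave 4942 calls as deposited and 4683 after median-of-ratios scaling. Higher calls numbered 2454 after quantile normalization and 711 with a mean of at least 5 FPKM, against 1186 as deposited, and 1043 with that filter against 1644 after median-of-ratios scaling. The filter tests fewer genes. With each library left out in turn, higher calls ranged from 777 (without EPZ replicate 2) to 1447 (without ENZ replicate 1) as deposited and from 1004 to 1900 after scaling, and all calls from 3395 to 5272 and from 3004 to 5038, where a lone library is assumed to vary like the other groups. Of the 4703 genes called as deposited, 3358 were called in the same direction without EPZ replicate 2 and 4654 with the block. The median of the G2/M genes was -1.68 to -1.54 with a library left out, -1.79 after quantile normalization and -2.09 at a pseudocount of 0.1. Signs turned for genes near 0. PLA2G2A was at -0.53 with a pseudocount of 0.1. TRIB2 was at 0.042 after median-of-ratios scaling, 0.61 after quantile normalization and -0.085 to 0.018 with a library left out. KLK2 ranged from -0.040 to 0.11 and TMPRSS2 from -0.028 to 0.029 with a library left out, and TMPRSS2 was at -0.015 with the length correction. The median of glucocorticoid-induced genes was 0.065 after quantile normalization. The causes were not tested. Calls were also lost for ITGB4 (0.39 as deposited) in 10 alternatives, for EGFR (-0.34) without EPZ replicate 1 (-0.29) and after quantile normalization (-0.19), and for SNAI2 (-1.03) and WNT5A (0.90) with a pseudocount of 0.1 (-0.75 and 0.49). Genes of few fragments are limited by depth: their departures rest on the pseudocount.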

Other observations

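Antisense transcripts were outside the naming rule, and a pair among the highest departures is given here after its values were seen. HOXA11-AS, the antisense partner of HOXA11, stood at 46.5 and 49.4 FPKM in Combination, 8.71 and 9.18 with ENZ, 1.59 and 1.99 with EPZ and 1.55 and 1.72 with DMSO, a departure of 2.22 (SE 0.12, adjusted p = 2.14e-06) by limma. EPZ changed it by 2.30 on top of ENZ and 0.08 alone. Reads of HOXA11 and HOXA11-AS cannot be told apart where they overlap if counting ignored strand. COLCA1, annotated as antisense and named for a colorectal cancer risk locus, stood at 87 and 92 FPKM in Combination, 2 and 2.46 with ENZ, 20.4 and 20.7 with EPZ and 2.14 and 2.62 with DMSO, a departure of 2.13 (SE 0.13, adjusted p = 3.65e-06). ENZ changed COLCA1 by 2.07 on top of EPZ and -0.06 alone.

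Further genes named by the rule come from separate lists. TFRC, the transferrin receptor, stood at 34 and 34.5 FPKM in Combination, 114 and 122 with ENZ, 120.2 and 123 with EPZ and 165 and 154 with DMSO, a departure of -1.37 (SE 0.08, adjusted p = 3.26e-06). SLC1A5, a glutamine transporter, stood at 12.1 and 13.1 FPKM in Combination, 44.3 and 40.4 with ENZ, 59.3 and 62.1 with EPZ and 65.8 and 62.9 with DMSO, a departure of -1.58 (SE 0.094, adjusted p = 3.45e-06), with 23.4% of its exonic length under an antisense gene. SLC7A1, a cationic amino acid transporter, stood at 27.9 and 30 FPKM in Combination, 60.6 and 61.3 with ENZ, 59.7 and 58.3 with EPZ and 69.5 and 67.5 with DMSO, a departure of -0.84 (SE 0.078, adjusted p = 4.49e-05). In all 3 genes Combination was lowest, and the single agents lay between it and DMSO. The metallothionein MT1X stood at 15.8 and 17.4 FPKM in Combination, 35.2 and 31.2 with ENZ, 53.2 and 53.7 with EPZ and 47.8 and 51.1 with DMSO, a departure of -1.07 (SE 0.1, adjusted p = 5.49e-05), and the zinc transporters SLC30A4 and SLC39A14 departed by -1.11 and -0.93. Another annotated gene overlaps 18.1% of the exonic length of MT1X.

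Among immediate early genes KLF4, a zinc finger factor, stood at 5.5 and 6.54 FPKM in Combination, 1.75 and 1.53 with ENZ, 2.04 and 2.2 with EPZ and 2.25 and 1.8 with DMSO, a departure of 1.36 (SE 0.15, adjusted p = 0.000124), so Combination was highest, and EPZ overlapped DMSO with ENZ just below both. WNT5A, a secreted ligand, stood at 18 and 19.2 FPKM in Combination, 5.79 and 6.27 with ENZ, 1.47 and 1.22 with EPZ and 0.633 and 0.497 with DMSO, a departure of 0.90 (SE 0.12, adjusted p = 0.000462) that a pseudocount of 0.1 brought to 0.49 and under the threshold. BBC3, the p53 target PUMA, stood at 2.28 and 2.13 FPKM in Combination, 1.39 and 1.27 with ENZ, 1.37 and 1.18 with EPZ and 1.92 and 2.16 with DMSO, a departure of 0.88 (SE 0.13, adjusted p = 0.000699), with both single agents below DMSO and Combination overlapping it. DDC, dopa decarboxylase, stood at 69.1 and 71.7 FPKM in Combination, 112 and 118 with ENZ, 15.3 and 17.4 with EPZ and 45.4 and 40.7 with DMSO, a departure of 0.65 (SE 0.11, adjusted p = 0.00121), so EPZ was lowest and ENZ highest. PEG10, an imprinted gene of retroviral origin, stood at 0.79 and 0.682 FPKM in Combination, 0.337 and 0.436 with ENZ, 3.97 and 3.89 with EPZ and 0.46 and 0.632 with DMSO, a departure of -1.35 (SE 0.14, adjusted p = 9.49e-05), high with EPZ and low in the other groups. PEG10 passed the filter only through EPZ, so its place above the other groups there largely followed from the filter.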
